A study of Mus musculus with 30 samples.

Results

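Hox, Pbx and Meis genes encode homeodomain transcription factors that give cells their position along the body axis. Of the 16995 genes tested in the cervical spinal cord after stroke, 31 members of these 3 families, matched by name, are described. They were 25 Hox genes (Hoxa, Hoxb, Hoxc and Hoxd with a number), 3 Pbx genes and 3 Meis genes, and none was chosen by its values. The samples were the intermediate laminae of the spinal levels C5/C6, dissected from the stroke-denervated hemicord of adult female C57BL/6 mice. Stroke animals had received a unilateral photothrombotic lesion of the right sensorimotor cortex and were taken at 4 (n = 4), 7, 14, 28 and 42 days post-injury (dpi, n = 5 each). The sham group (n = 5, labelled Ctrl) had the same operation without illumination of the skull. Each sample was 1 animal, and the laminae had been trimmed out with blades.

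The Hox genes lie in 4 clusters, named a to d, and a paralogue number from 1 to 13 gives a gene's place in its cluster. In the embryo, genes with low numbers are switched on early and far forward, and genes with high numbers are switched on later and closer to the tail. Their combination sets which motor and interneuron types form at a spinal level, with the genes numbered 4 to 8 typical of the cervical cord and those from 9 upward of the thoracic cord and below. Pbx and Meis proteins bind DNA together with Hox proteins and sharpen which sites these recognise. In the adult cord many of these genes remain active, and the number therefore reads as a label of position.

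The values were the authors' normalized CPM (read counts scaled to library size), rounded to 0.1, and the depth behind them is unknown. In GENCODE M21, 39 Hox genes carry such names. All genes numbered 2 to 9 were members, with 2, 3, 4, 3, 3, 2, 3 and 4 genes in this order, and Hoxb1 was the 1 member numbered 1. The other 14 genes, among them the 12 numbered 10 to 13, were not analysed here. Reads were not separated by strand, and 53% of the exon bases of Hoxb3 lie opposite Hoxb3os, while 62% of those of Hoxd3 and 52% of those of Hoxd4 are shared with neighbours on the same strand. The values of these 3 genes are therefore uncertain. Hoxb2, Hoxa7 and Hoxa4 lay opposite other genes with 27%, 20% and 16% of their exon bases. Hoxa2 shared 15% on the same strand. For Hoxa3 it was 25% opposite and 8.0% on the same strand, and for Meis1 8.5% and 9.8%.

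Libraries differed in the remaining ribosomal RNA, given by the row Rn18s-rs5. Its values lay between 30321 and 52929 in the sham animals and between 44755 and 779160 at 28 dpi. Altogether 8 animals exceeded the highest sham value more than 4 times, 2 at 14 dpi, 4 at 28 dpi and 2 at 42 dpi. The tissue was checked against marker genes. Of 10 markers of forebrain and midbrain, 2 were measured (Neurod6 and Six3), with summed values from 2.2 to 3.3 in the sham animals, and of 6 markers of dorsal root ganglia only Pou4f1 was measured, at 1.4 to 2.6. The 8 measured interneuron markers of the cord summed to between 668 and 800 in the sham animals, and 6 motor neuron markers to between 80.7 and 315. Their part in the results was not tested, other than as given beside them. In such bulk samples fewer cells of a type and less RNA per cell cannot be told apart.

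The promoter of Hoxb1 is shown first, because Hoxb1 was the member with the largest change after stroke. Hoxb1 specifies a segment of the embryonic hindbrain, and its upstream region is known for sites through which Hoxb1 and Pbx proteins maintain its expression. The window runs 5′ to 3′ from 250 bases before to 50 bases after the start of the RefSeq transcript, at chr11:96365508-96365807 on the plus strand of GRCm38.p6, and capitals mark a match to TGATNNAT, a motif bound by Pbx and Hox together. Below it, for comparison, stands the window of Hoxd8, whose fall at 28 dpi had the lowest adjusted p among the members, at chr2:74704365-74704664 on the plus strand, which holds no match.
Hoxb1: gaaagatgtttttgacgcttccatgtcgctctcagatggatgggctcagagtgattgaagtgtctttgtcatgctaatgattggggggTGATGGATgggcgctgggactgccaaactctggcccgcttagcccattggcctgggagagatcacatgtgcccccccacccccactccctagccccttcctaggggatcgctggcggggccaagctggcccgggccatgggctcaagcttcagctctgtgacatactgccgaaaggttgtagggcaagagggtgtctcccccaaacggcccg
Hoxd8: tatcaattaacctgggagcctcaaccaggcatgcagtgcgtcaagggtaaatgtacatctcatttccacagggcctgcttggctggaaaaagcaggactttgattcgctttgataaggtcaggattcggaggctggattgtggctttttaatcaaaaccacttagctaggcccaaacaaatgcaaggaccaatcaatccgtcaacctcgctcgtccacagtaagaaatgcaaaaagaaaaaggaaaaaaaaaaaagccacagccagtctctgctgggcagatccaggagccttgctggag

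Windows of this kind were matched by symbol for 19 of the 31 members. TGATNNAT was searched on both strands and occurred in 3 of them (Hoxa2, Hoxb1 and Hoxb8), which is 15.8%, beside 8.85% of 32851 windows of all genes. In Hoxb1 its first base was base 89 of the window. The Meis motif TGACAG, which does not overlap with it, occurred in 2 member windows (Hoxa2 and Hoxa3), or 10.5%, beside 19.2% of all windows. The matches describe the letters of these windows only.

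Which Hox numbers did the dissected tissue express? Levels were compared between genes per kilobase (kb) of exon, as normalized CPM per kb in the 5 sham animals. The 6 genes numbered 1 to 3 lay low, between 0.635 for Hoxa3 and 1.66 ± 0.257 (SD, n = 5) for Hoxb3, and none exceeded 2 on this scale. Of the 15 genes numbered 4 to 8, 13 exceeded 2, and their median was 5.19. Among the 4 genes numbered 9 only Hoxb9 exceeded 2. Over the mean annotated transcript length in place of all exons, an alternative chosen after seeing the data, 3 of the 6 genes numbered 1 to 3 exceeded 2 (Hoxb3 at 4.55, Hoxa3 at 2.33 and Hoxd3 at 2.23), as did 13 of the 15 numbered 4 to 8 and 2 of the 4 numbered 9 (Hoxb9 and Hoxa9, at 2.13). The medians of these ranges were then 2.10, 7.32 and 1.68, and Hoxb3 lay above Hoxb5 (4.51), Hoxa4 and Hoxb4.

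**Figure D1:**
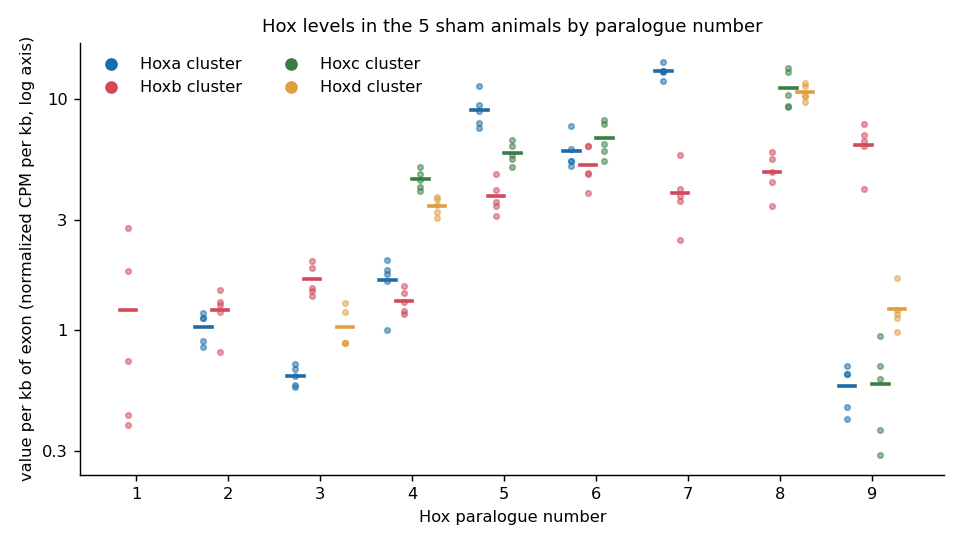
Level of each of the 25 Hox genes in the sham animals, as normalized CPM per kb of exon on a log axis, against the paralogue number; points are animals (n = 5), bars are means and colours are clusters. The levels of numbers 1 to 3 lie between 0.635 and 1.66, those of numbers 4 to 8 reach 13.2 at Hoxa7, and at number 9 Hoxb9 stands at 6.33 above the other 3 genes.

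The highest level of all members was that of Hoxa7, at 13.2 ± 0.850 normalized CPM per kb (n = 5), with the animals between 12 and 14.4. Hoxc8 followed at 11.1 ± 2.10, and Hoxd8 at 10.7 ± 0.871. Hoxc8 sets the identity of motor neuron pools at the border of the cervical and thoracic cord. Its animals reached 13.6 and overlapped with those of both Hoxa7 and Hoxd8, so that the order of neighbours here is within the spread. Hoxa5, known for its part in the phrenic motor neurons of the cervical cord, had 8.97 ± 1.53. Hoxc6, which marks limb-level motor neurons, had 6.74 ± 1.18 and Hoxc4 had 4.49 ± 0.427.

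The other genes numbered 4 to 8 had, per kb of exon in the sham animals, 5.93 for Hoxa6, 5.85 for Hoxc5, 5.19 for Hoxb6, 4.81 for Hoxb8, 3.94 for Hoxb7, 3.79 for Hoxb5 and 3.45 for Hoxd4. Hoxa4 (1.64) and Hoxb4 (1.34) were the 2 genes of numbers 4 to 8 that did not exceed 2.

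Over all 29 animals, the gene of each number from 2 to 6 with the highest sham level per kb of exon ranged from 2.7 to 5.2 normalized CPM for Hoxb2, 5.1 to 8.8 for Hoxb3, 7.6 to 14.2 for Hoxc4, 11.8 to 21.3 for Hoxa5 and 11.6 to 19.7 for Hoxc6. Hoxc5, the gene of number 5 with the higher value when not divided by exon length, ranged from 14.5 to 20.6. None of these 6 passed in any comparison of the limma fit given below, although Hoxa5 and Hoxc4 passed under an alternative. Among the cofactors the ranges over all animals were 15 to 22.7 for Meis1, 32.7 to 45.2 for Meis2 and 7.0 to 13.7 for Meis3, and 18.8 to 25.1 for Pbx3 and 0.8 to 2.9 for Pbx4.

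At the low end stood Hoxc9 and Hoxa9. Hoxc9, which in the embryo represses forelimb motor neuron genes in the thoracic cord, had 0.584 ± 0.264 normalized CPM per kb, and Hoxa9 had 0.573 ± 0.126. Hoxd9 reached 1.24 ± 0.266. Hoxb9, at 6.33 ± 1.38, lay apart from these, and its lowest sham animal (4.08) was above the highest of the other 3 genes (1.69, Hoxd9). For the low numbers, Hoxb2 had 1.22 ± 0.256, Hoxa2 had 1.04 ± 0.152 and Hoxb1 had 1.22 ± 1.03.

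The sum per number showed the same step. In the sham animals, numbers 1, 2 and 3 made up 1.13%, 2.12% and 3.13% of the summed Hox level per kb. Number 4 made up 10.3%, number 5 17.4%, number 6 16.8%, number 7 16.0% and number 8 24.9 ± 1.85% (n = 5). Number 9 made up 8.2 ± 1.32%. Genes of each number differ in how many were measured, so the sums also count genes.

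The cofactors were present beside them. Per length in the sham animals, Pbx2 lay at 5.48 ± 0.363 normalized CPM per kb, Pbx3 at 3.84 ± 0.219 and Pbx4 at 1.03 ± 0.217. The ranges of these 3 did not overlap on this scale. Meis3 and Meis2 lay together at 3.27 ± 0.199 and 3.23 ± 0.290, and Meis1 at 1.77 ± 0.132. These levels depend on the length chosen. Over the mean transcript length Hoxa7 remained first with 31.2 and Hoxd8 at rank 3 with 17.7, but Meis2 moved from rank 18 to rank 2 (22.3) and Hoxc8 from rank 2 to rank 6 (15.4). Pbx3 (17.7) then lay above Pbx2 (13.2), so that comparisons between families, within them and between Hox numbers depend on the choice of length.

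Members differed in how much animals of a group varied. The SD of log2 values within groups was lowest for Pbx2 (0.096), Pbx3 (0.11), Meis2 (0.11) and Hoxd8 (0.12). It was highest for Hoxb1 (0.76), followed by Hoxc8 (0.45), Hoxb9 (0.44), Hoxc9 (0.43) and Hoxa9 (0.41). The median was 0.23 over the members and 0.19 over all genes. Hoxc9 was read at low values, from 0.4 to 2.3 normalized CPM, whereas Hoxc8 and Hoxb9 had means of 31.7 and 12.5 over all animals.

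Did the stroke change the positional genes? In 1 limma fit of log2(value + 0.5) over all genes, with Benjamini-Hochberg adjustment, the stroke groups were set against the sham animals and 28 dpi also against 14 and 42 dpi. Calling a gene took an adjusted p under 0.05 together with a change of more than 1.5-fold, and the added 0.5 understates the change of low genes. All comparisons with sham share the same 5 sham animals. At 4, 7, 14 and 42 dpi no member was called, in a table in which 0.0941%, 0.0294%, 0.00588% and 0.0235% of all genes were called. No member passed the adjusted p at any fold at these times either, while 1, 0, 4 and 3 members had an unadjusted p under 0.05, beside 5.14%, 5.84%, 11.6% and 14.8% of all genes. At 4 dpi 21 of the members lay below 0 and 48.1% of all genes did. At 7 dpi 16 of the members lay below 0 and 50.2% of all genes did. No member lay wholly below sham at 7 dpi, beside 0.583% of all genes, and none lay wholly on either side at 14 dpi, beside 2.07%.

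At 28 dpi 1 member, Hoxb1, was called, which is 3.23% of the members beside 4.64% of all genes. At any fold 3 members passed the adjusted p, or 9.68%, beside 24.9% of all genes, and 1 member, Hoxd8, did not overlap with sham, beside 9.9%. No member lay wholly above sham at 28 dpi or at 42 dpi, beside 6.15% and 2.21% of all genes. Hoxb1 rose, and Hoxd8 and Hoxa7 fell. The median log2 fold change of the 31 members was -0.15, against -0.0048 for all genes, and 25 of the members (80.6%) lay below 0, against 50.7% of all genes. Without the 8 animals of high ribosomal RNA, which leaves 1 animal at 28 dpi, 15 of the members lay below 0 and the median was 0.0033. By number, the median was -0.14 for Hox 1 to 3, -0.18 for Hox 4 to 6, -0.34 for the 2 genes numbered 7, -0.21 for number 8 and -0.26 for number 9.

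**Figure D2:**
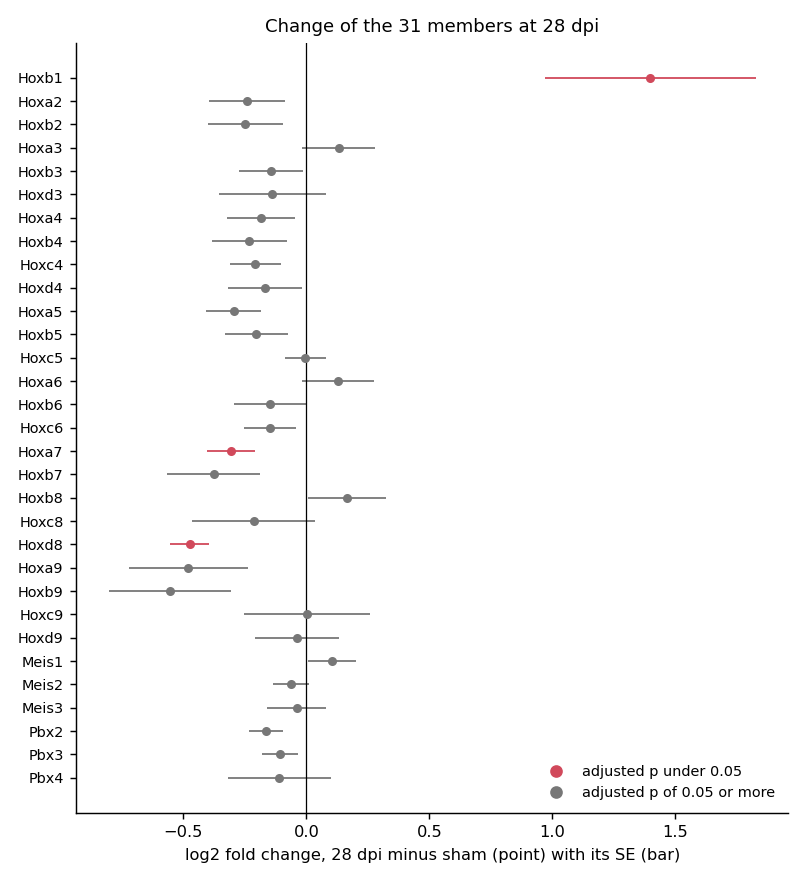
Log2 fold change of each of the 31 members at 28 dpi minus sham (points, n = 5 per group) with its SE from limma (bars); red marks an adjusted p under 0.05. Hoxb1 stands out at 1.40, Hoxd8 and Hoxa7 lie at -0.47 and -0.31, and most other Hox genes lie below 0. The lowest is Hoxb9 at -0.56, which did not pass.

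Hoxb1 had values of 1.0, 1.7, 4.2, 6.4 and 0.9 normalized CPM in the sham animals. At 28 dpi the values were 7.4, 14.1, 4.1, 5.2 and 5.8. All 28 dpi animals lay at or above 4.1, and 2 of 5 lay above the sham range, so the groups overlapped. The log2 fold change was 1.40 ± 0.43 (SE, adjusted p = 0.019). Between 1.3 and 3.7 at 14 dpi, the values did not overlap with those at 28 dpi, and the log2 difference was 1.29 (adjusted p = 0.016). At 42 dpi 4 animals had 1.9 to 2.3 and the other animal had 11.7.

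The highest values of Hoxb1 at 28 and 42 dpi belonged to the 3 animals whose labels begin with A3 (7.4, 14.1 and 11.7). Without these 3 animals the log2 fold change at 28 dpi was 1.01 and no longer passed (adjusted p = 0.083). Leaving out the single 28 dpi animal A3-3 gave 1.14 (adjusted p = 0.078), and leaving out the sham animal A12-3 gave 1.16 (adjusted p = 0.067). The 3 A3 animals were all among the 8 animals of high ribosomal RNA (417970, 779160 and 457302 in the same order). Hoxb1 also moved with ribosomal RNA. Within groups, the r of both was 0.44 (Spearman 0.43, n = 29, permutation p = 0.00505 and 0.0121), which had an adjusted p of 0.025 and 0.054 over 93 relations and r = 0.39 without the 2 animals farthest from the median. With ribosomal RNA as a covariate the log2 fold change at 28 dpi was 0.64 (adjusted p = 0.447). That fit called none of the 16995 genes at 28 dpi, with 3751 at an unadjusted p under 0.05.

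**Figure D3:**
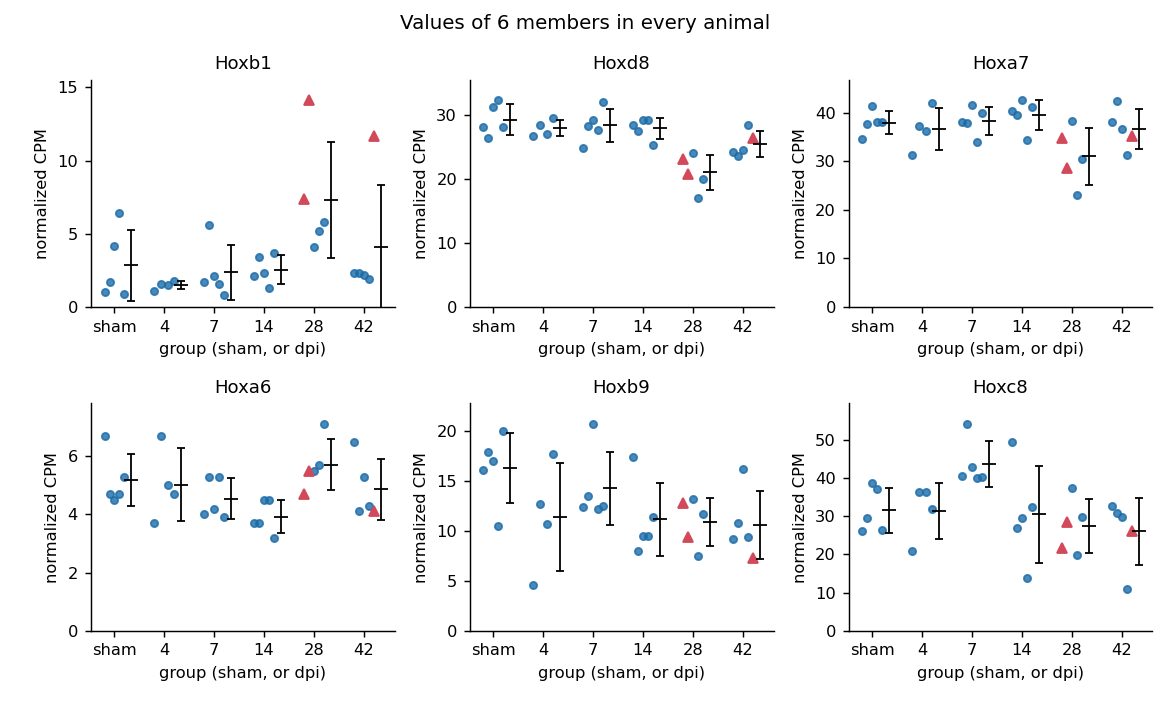
Values of Hoxb1, Hoxd8, Hoxa7, Hoxa6, Hoxb9 and Hoxc8 in every animal of the 6 groups (normalized CPM from 0), with mean and SD in black (the SD of Hoxb1 at 42 dpi is cut at 0); red triangles are the 3 animals whose labels begin with A3. Hoxd8 at 28 dpi lies wholly below sham, whereas Hoxb1 overlaps.

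Hoxd8, a gene of the cluster that also patterns the limbs, fell. Its sham values were 28.2, 26.5, 31.2, 32.3 and 28.2 normalized CPM, and at 28 dpi they were 23.2, 20.8, 24.1, 17.1 and 20. All 5 animals lay below the sham range, as for 3.75% of all genes. The log2 fold change was -0.47 ± 0.080 (adjusted p = 0.00138), and it stayed past the adjusted p when any animal was left out, with 0.00747 as the highest. At 14 dpi the values were 25.3 to 29.3 and at 42 dpi 23.6 to 28.5. The rise from 28 to 42 dpi was 0.28 (adjusted p = 0.059).

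Hoxa7 fell by 0.31 on the log2 scale at 28 dpi (SE 0.099, adjusted p = 0.025). Its values were 34.5, 37.7, 41.4, 38.0 and 38.1 normalized CPM in the sham animals and 34.8, 28.5, 38.2, 23.0 and 30.4 at 28 dpi, and 3 of 5 lay below the sham range. It did not pass the adjusted p without the sham animal A12-1 (-0.27, adjusted p = 0.075), without the 28 dpi animal A3-3 (-0.28, adjusted p = 0.070) or A4-3 (-0.21, adjusted p = 0.108), and in the fit of the 2 groups alone (-0.31, adjusted p = 0.079).

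These changes at 28 dpi stood beside high ribosomal RNA in 4 of the 5 animals, and both cannot be told apart by the design. With ribosomal RNA as a covariate, Hoxd8 had a log2 fold change of -0.39 (adjusted p = 0.056) and Hoxa7 of -0.30 (adjusted p = 0.168). Without the 8 animals of high ribosomal RNA, which leaves 1 animal at 28 dpi that is assumed to vary like the other groups, the values were 0.76 for Hoxb1, -0.27 for Hoxd8 and 0.012 for Hoxa7, and none passed. After a correction for transcript length and GC content, Hoxd8 had -0.48 (adjusted p = 0.000515). The correction also brought the members past the adjusted p to 6 with Hoxb9, Hoxa5 and Hoxc4, all lower, which is 19.4% of the members beside 25.9% of all genes in that fit. Both the correction and the leaving out of animals by ribosomal RNA were chosen after seeing the data.

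Rescaling each animal to the same sum, ribosomal RNA included, moved the median of all genes at 28 dpi to -0.73. The members' median then was -0.88, and 28 of 31 were called (27 lower, and Hoxb1 higher), or 90.3%, beside 65.2% of all genes. The rescaling shifts all genes of an animal by nearly the same log2 amount. The members' median below that of all genes on both scales therefore counts as 1 result. Before rescaling, the members' median log2 deviation had an SD of 0.097 between the sham animals.

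Between 14 and 28 dpi 9 of the 31 members passed the adjusted p, or 29%, beside 43% of all genes, and Hoxb1 alone was called, beside 11.8% of all genes. Higher at 28 dpi were Hoxb1, Hoxa3 (0.43, adjusted p = 0.019) and Hoxa6 (0.49, adjusted p = 0.0079). Lower were Hoxa2 (-0.44), Hoxa4 (-0.38), Hoxa7 (-0.37), Hoxb7 (-0.46), Hoxd8 (-0.41) and Pbx2 (-0.29). The lower genes included Hoxa2 and Hoxa4 from the front of the Hoxa cluster and Hoxa7 from its middle, while their neighbours Hoxa3 and Hoxa6 were higher. Hoxa6 had 3.7, 3.7, 4.5, 4.5 and 3.2 normalized CPM at 14 dpi and 4.7, 5.5, 5.5, 5.7 and 7.1 at 28 dpi. Pbx2 had 21.7, 21.7, 20.8, 21.8 and 22.8 at 14 dpi and 17.3, 15.8, 20, 15.7 and 20.4 at 28 dpi. In both genes the groups did not overlap, which held for 4 of the 31 members (12.9%) beside 22% of all genes. Hoxa2 had 2.5, 2.9, 1.7, 1.8 and 2.1 at 14 dpi and 1.8, 1.3, 1.4, 1.2 and 1.7 at 28 dpi. Hoxa3 had 4.5, 2.0, 2.8, 3.2 and 2.9, then 3.8, 3.9, 4.4, 5.1 and 4.0. Both overlapped, as did Hoxa4 and Hoxb7. Hoxa4 had 3.0, 3.5, 3.2, 2.9 and 2.5 at 14 dpi and 2.5, 1.7, 2.5, 2.5 and 1.9 at 28 dpi. Hoxb7 had 7.0, 5.7, 5.1, 8.4 and 5.6, then 5.5, 2.6, 5.9, 3.9 and 5.0. Hoxa2, Hoxa3, Hoxa4 and Hoxb1 each no longer passed when 1 of several animals was left out (highest adjusted p 0.082, 0.086, 0.089 and 0.066). Their log2 differences then stayed between -0.51 and -0.35 for Hoxa2, 0.31 and 0.56 for Hoxa3, -0.43 and -0.30 for Hoxa4, and 1.04 and 1.45 for Hoxb1. Hoxb7, just past the limit (adjusted p = 0.049), no longer passed without animals of any of the 6 groups (highest 0.205, at -0.29 without the 28 dpi animal A3-3). Without the 8 animals of high ribosomal RNA none of the 9 passed, beside 2.95% of all genes. With 1 animal left at 28 dpi the log2 difference was then 0.96 for Hoxb1, -0.38 for Hoxa2, 0.32 for Hoxa3, -0.24 for Hoxa4, 0.35 for Hoxa6, -0.028 for Hoxa7, -0.17 for Hoxb7, -0.26 for Hoxd8 and -0.097 for Pbx2.

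Between 28 and 42 dpi no member was called, beside 0.224% of all genes, and none passed the adjusted p at any fold, beside 1.94%. By unadjusted p under 0.05 there were 7 members, or 22.6%, beside 21.1% of all genes. Hoxd8 came nearest to the limit (adjusted p = 0.059). Hoxb4 was the 1 member that did not overlap, with 3.2, 2.2, 3.2, 2.8 and 2.9 normalized CPM at 28 dpi and 3.7, 5.3, 3.6, 4.2 and 3.9 at 42 dpi (log2 difference 0.46, adjusted p = 0.088), a separation upward shown by 1.64% of all genes.

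Hoxb9 had the largest log2 fold change, or the next largest, at 4 of the 5 time points, all of them negative, but none passed. It had 16.1, 17.9, 17.0, 10.5 and 20 normalized CPM in the sham animals and 4.6, 12.7, 10.7 and 17.7 at 4 dpi. At 42 dpi it had 9.2, 10.8, 16.2, 9.4 and 7.3. The log2 fold changes were -0.60 for 4 dpi (adjusted p = 0.844), -0.55 for 14 dpi (0.411), -0.56 for 28 dpi (0.097) and -0.62 for 42 dpi (0.233). Each of these shares the sham group, in which 4 of 5 animals were at 16.1 or more. The value at 28 dpi passed in the fit of the 2 groups alone and after the length and GC correction (-0.64, adjusted p = 0.048). It also passed without the sham animal A12-2 (-0.70, adjusted p = 0.049) or the 4 dpi animal A10-1 (-0.56, adjusted p = 0.046), and with a common sum in every animal Hoxb9 was called at 28 and at 42 dpi. The value at 4 dpi rested largely on the animal A10-1 and was -0.24 without it. Hoxa9 had -0.52 at 42 dpi (adjusted p = 0.303), with 1.1 to 2.7 normalized CPM against 2.3 to 3.9.

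Hoxc8 was the member with the largest difference at 7 dpi. Its values of 40.5, 54.1, 43.0, 39.9 and 40.2 normalized CPM all lay above the sham values of 26.2, 29.4, 38.6, 37.1 and 26.3, as for 0.388% of all genes, but the log2 fold change of 0.47 did not pass (adjusted p = 0.876). At 14 dpi Hoxc8 ranged from 13.9 to 49.5 within the group. Pbx4 had the next largest difference at 7 dpi (-0.22, adjusted p = 0.898) and at 14 dpi (-0.50, adjusted p = 0.393). Hoxb1 had the next largest at 4 dpi (-0.46).

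Was the balance between caudal and rostral numbers altered? For each animal a positional index was taken as the mean log2 value of the 7 members numbered 8 and 9 minus that of the 10 numbered 4 to 6, with no gene numbered 10 among the members. It was -0.088 ± 0.10 in the sham animals (SD, n = 5), between -0.23 and 0.056. The mean of the 4 dpi animals was -0.23 and that of the 7 dpi animals -0.050. Later groups had means of -0.18 (14 dpi), -0.17 (28 dpi) and -0.31 ± 0.18 (42 dpi). All groups overlapped with the sham animals, and the index ranged most widely at 14 dpi, from -0.60 to 0.19. The index of 42 dpi animals lay between -0.61 and -0.14, with 3 of the 5 below the lowest sham animal. The index was described without a test.

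**Figure D4:**
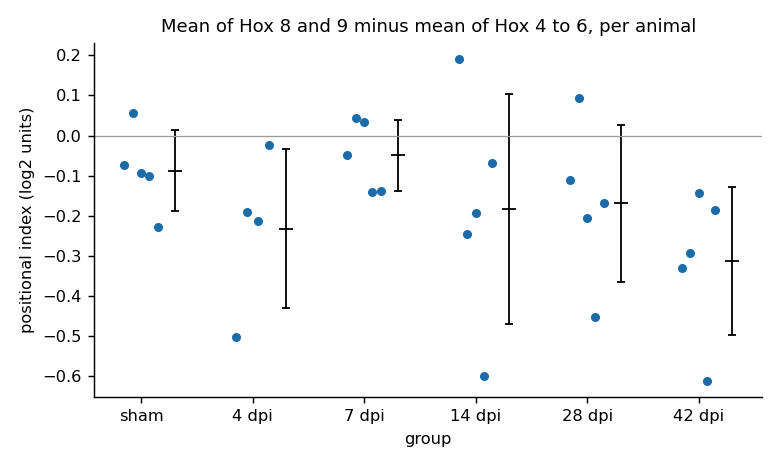
Positional index of each animal (log2 units; mean of Hox 8 and 9 minus mean of Hox 4 to 6) by group, with the group mean and SD in black. The sham animals lie between -0.23 and 0.056, the 14 dpi animals spread from -0.60 to 0.19, and all stroke groups overlap with sham.

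By share of the summed Hox level per kb, number 9 went from 8.2 ± 1.32% in the sham animals to 6.8 ± 0.608% at 28 dpi and 6.26 ± 1.15% at 42 dpi (n = 5 each). The earlier groups were also below sham, with 6.25 ± 1.67% in the 4 dpi animals (n = 4), 7.12 ± 0.915% in those of 7 dpi and 6.39 ± 1.17% in those of 14 dpi, and all groups overlapped with sham. Number 8 had 24.9% (22.5 to 27.6%) in the sham animals and 28.3 ± 1.27% (27.3 to 30.4%) in the 7 dpi animals, its largest departure from sham, and the other stroke groups lay between 23.9% (42 dpi) and 25.7% (4 dpi). Number 1, which is Hoxb1, had 3.41% at 28 dpi against 1.13%.

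How the caudal genes varied together within groups was followed because Hoxc8, Hoxb9, Hoxc9 and Hoxa9 had a wide spread. That of Hoxd8 was narrow (0.12). Over the 21 pairs of the 7 members numbered 8 and 9, with group means subtracted (n = 29), Pearson's r had a median of 0.24 and 3 pairs had an adjusted p under 0.05 by permutation. Hoxa9 and Hoxb9 had r = 0.73 and Spearman's rho = 0.69 (permutation p = 0.00014 and 0.00017, adjusted p = 0.00273 and 0.00178), with r = 0.71 without the 2 animals farthest from the median of Hoxa9. Hoxb8 and Hoxb9, neighbours on chromosome 11, had r = 0.70 and rho = 0.77 (permutation p = 0.00026 and 7e-05, adjusted p = 0.00273 and 0.00147), and 0.60 without the 2 farthest animals. Hoxc8 and Hoxa9 had r = 0.65 and rho = 0.56 (permutation p = 0.00075 and 0.00255, adjusted p = 0.00525 and 0.018), and 0.57 without them. Hoxc9 and Hoxd9 had the lowest r, at -0.29 (permutation p = 0.147, rho = -0.33, permutation p = 0.118, adjusted p = 0.405 and 0.414). The points share their libraries and normalization.

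Markers of spinal neurons moved with several members within groups. The measures were the mean log2 deviation of 8 interneuron markers, among them Slc32a1, Slc6a5, Gad1, Gad2 and Pax2, that of 6 motor neuron markers (Chat, Slc5a7, Slc18a3, Isl1, Mnx1 and Prph), and Rn18s-rs5, against each of the 31 members, in 93 relations. Against the interneuron markers r was above 0 for 28 members, and 10 had an adjusted p under 0.05 by permutation. Against the motor neuron markers r was below 0 for 28 members, with 9 past the threshold in that direction and Hoxb1 in the other. The share of all genes with such relations was not computed. These counts are therefore not known to be particular to the members. Of the Hoxb genes, Hoxb3, Hoxb5, Hoxb7, Hoxb8 and Hoxb9 were past it on both sides. The interneuron and motor neuron measures themselves deviated in opposite directions in most animals, and their relation to each other was not tested. Relations of a member with both lists are therefore not separate results.

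The closest relation was that of Hoxb9. Its r with the interneuron markers was 0.81 (rho 0.77, n = 29, permutation p = 2e-05 for both, adjusted p = 0.00186 and 0.00139), and 0.71 without the 2 animals farthest from the median. With the motor neuron markers it was -0.65 (rho -0.63, permutation p = 0.00387 and 0.0016, adjusted p = 0.023 and 0.014), and -0.52 without the farthest 2. Meis2 had r = 0.61 and -0.66 in the same order (rho 0.62 and -0.72, n = 29, permutation p = 0.00104 and 0.00016, adjusted 0.011 and 0.00316, r = 0.63 and -0.69 without the farthest 2). Pbx4 had r = 0.68 and -0.67 (rho 0.67 and -0.64, n = 29, permutation p = 0.00017 and 0.00028, adjusted 0.00316 and 0.00434, r = 0.66 and -0.61 without the farthest 2). Hoxb1 had r = 0.49 with the motor neuron markers (rho 0.44, permutation p = 0.00513 and 0.023, adjusted p = 0.025 and 0.091), and 0.70 without the farthest 2. Hoxd4 was also past the threshold against both lists, Meis3 and Hoxb6 against the interneuron markers and Hoxb4 against the motor neuron markers, whereas the remaining members, such as Hoxd8, were past it against neither list. The summed motor neuron markers ranged from 37.6 to 390 at 4 dpi alone.

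**Figure D5:**
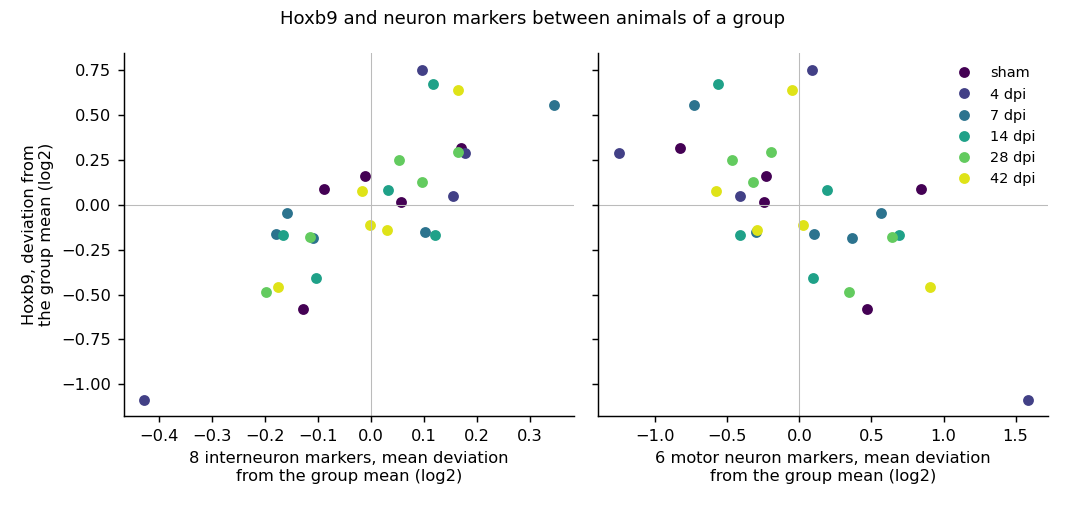
Deviation of Hoxb9 from its group mean against the mean deviation of 8 interneuron markers (left) and of 6 motor neuron markers (right), in log2 units; each of the 29 points is an animal, coloured by group. Hoxb9 was higher where interneuron markers were higher (r = 0.81) and lower where motor neuron markers were higher (r = -0.65). Both marker measures deviated in opposite directions in most animals, so the panels are not separate results.

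These lists were also compared between groups. At 28 dpi 2 of the 8 interneuron markers passed the adjusted p, both higher (Pax2, 0.69, and Slc6a5, 0.30), which is 25% beside 24.9% of all genes. The list median was -0.069, with Slc17a6 at -0.26, Lbx1 at -0.27, Gad1 and Gad2 at -0.15 each and Slc32a1 and Lhx1 at 0.011 and 0.014. None of the motor neuron markers passed. No marker of either list passed at the other times. Markers of other cells also moved at 28 dpi. Of 4 markers of mature oligodendrocytes 2 fell (Mog and Mobp, list median -0.39), and the sum of the 4 was 2784 to 4105 normalized CPM against 3806 to 5751 in the sham animals. Of 6 astrocyte markers Aqp4 and Aldh1l1 fell and Slc1a2 rose, and of 5 markers of all neurons Snap25 fell (-0.30, adjusted p = 0.016). Of 5 microglia markers Cx3cr1 rose, of 3 endothelial markers Flt1 and of 3 markers of meninges and fibroblasts Col1a1, with list medians of 0.11, 0.081 and 0.12, and shares of 20%, 33.3% and 33.3% beside the 24.9% of all genes. Between 14 and 28 dpi 3 of the 4 oligodendrocyte markers were lower past the adjusted p (list median -0.36), as were 2 of the 5 markers of all neurons and 2 of the 5 of microglia, and 2 of the 8 interneuron markers were higher, beside 43% of all genes. In the lists of astrocytes, oligodendrocyte precursors and endothelial cells 1 marker each was higher. The part of these markers in the changes of the members was not tested.

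The other genes of the Hox clusters that were measured are 7 long noncoding and antisense genes, and none of them passed the adjusted p at any time point against sham. The nearest at 28 dpi was 5730596B20Rik, which had 2.14 normalized CPM against 1.42 (log2 fold change 0.44, adjusted p = 0.114). Between 14 and 28 dpi it was called higher (1.04 and 2.14, log2 difference 0.80, adjusted p = 0.00266), the only 1 of the 7 to pass there. It lies opposite part of an exon of Hoxa3, which was higher in the same comparison, and reads of the shared bases cannot be told apart without strand. Of 11 further genes of cofactors of the same homeodomain class, 10 were measured and none passed at any time point, with Pknox1 nearest at 28 dpi (-0.29, adjusted p = 0.055).

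Polycomb proteins keep Hox genes silent and trithorax proteins keep them active. Of 30 such genes 29 were measured, and none passed against sham at 4, 7, 14 or 42 dpi. At 28 dpi 8 passed, 5 higher and 3 lower, which is 27.6% beside 24.9% of all genes. Of the 29 genes 3 were called, all higher, beside 4.64% of all genes called (4.15% higher). The called genes were Kmt2a, a trithorax methyltransferase for active Hox genes, at 118 against 75.5 normalized CPM (log2 fold change 0.64 ± 0.14, adjusted p = 0.00284), Kdm6b, a demethylase that removes the Polycomb mark, at 9.94 against 6.38 (0.59, adjusted p = 0.0071), and Pcgf2, a Polycomb subunit, at 3.18 against 1.98 (0.59, adjusted p = 0.012). Kmt2b and Phc3 rose by 0.47 and 0.31. Bmi1, Cbx8 and Dpy30 were lower, with log2 fold changes of -0.28, -0.41 and -0.45. The list median was -0.059, beside -0.0048 for all genes.

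Retinoic acid sets rostral Hox expression in the embryo. Of 20 genes for its synthesis, breakdown and receptors and for other axial signals 13 were measured, and none was called. At 28 dpi Aldh1a1, a synthesis enzyme, fell by 0.30 on the log2 scale (104 against 128 normalized CPM, adjusted p = 0.021), and the receptor gene Rarb fell by 0.27 (8.64 against 10.5, adjusted p = 0.041). These 2 of 13 genes are 15.4%, beside 24.9% of all genes.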

How the data were processed

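RNA of the intermediate laminae of C5/C6 was analysed in 29 mice, and 1 further animal labelled 4 dpi has no column of values. The deposited score values were made by the authors: reads of an unstranded, ribosome-depleted library were quantified on mm10 with SALMON 0.8.1 and Tximport 1.0.3, normalized with edgeR (3.14.0 per the labels, under R 3.4.1) to CPM, filtered on low expression and rounded to 0.1. They are not counts, so depth is unknown and no count test was run. The authors' own fold changes, p-values and calls were not used.

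Members were matched by gene name, and all 31 were tested. Some genes are not reported here and are in no count of members or of a list. Groups came from the labels, with Ctrl read as sham from the study's methods. One limma fit (3.58.1, with trend, R 4.3.3) of log2(value + 0.5) over 6 groups gave the 7 comparisons, adjusted over 16995 genes. In simulated data for 28 dpi against sham (16995 genes), 200 genes with a positive mean log2 value were changed. Recovery was counted by the adjusted p alone, without the fold limit. It was 61.5%, 88.5% and 97% at log2 changes of 0.585, 0.8 and 1.5, with 5, 9 and 15 unchanged genes passing. P-values measure the spread between animals. Relations within groups used 100000 permutations within groups (Python 3.11.15, numpy 2.4.6, scipy 1.17.1, pandas 2.3.3), and which relations to compute was chosen after values were seen.

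Named were members past the adjusted p in any comparison, the 2 with the largest change per time point, the highest Hox gene of each number and the lowest, and all Pbx and Meis members. Hoxb4 and others beyond this were named after their values were seen. The members and all lists were chosen with earlier results of these data known. Exons, lengths and GC content came from GENCODE M21, whose start positions equalled those of the deposited table for all 31 members. Promoter windows came from RefSeq (GRCm38.p6). Alternatives were pseudocounts of 1 and 0.05, a mean value of at least 1, quantile normalization, median centring, a common sum, no trend, fits of 2 groups, the label number as a random block, a ribosomal RNA covariate, leaving out each animal and, added later, leaving out 3 or 8 animals and a correction for length and GC content.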

Additional observations from a re-analysis of the deposited data

Results flagged for a closer look

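Several values stood apart from the others of their group by Dixon's limit (0.829 for 4 animals, 0.71 for 5). These were 6 among 84 groups of values, where chance alone gives about 1 in 20. In the 4 dpi animal A10-1, Hoxa2 (1.7) and Pbx4 (1.3) were the lowest of their group. In the 7 dpi animal A7-3, Hoxb1 (5.6) and Hoxc8 (54.1) were the highest, and in the 7 dpi animal A7-4 Hoxb9 was (20.7). In the 42 dpi animal A3-4 Hoxb1 stood at 11.7.

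The level differed between 28 and 14 dpi for 9 members, by the contrast between both time points in the limma fit. This is 29% of the members beside 43% of all genes. No sham group was matched to either time point. The log2 differences were 1.29 for Hoxb1, -0.44 for Hoxa2, 0.43 for Hoxa3, -0.38 for Hoxa4, 0.49 for Hoxa6, -0.37 for Hoxa7, -0.46 for Hoxb7, -0.41 for Hoxd8 and -0.29 for Pbx2. Ribosomal RNA was also higher at 28 dpi, with a median of 323192 against 95114 at 14 dpi, and the design cannot tell both apart. With it as a covariate 7 of the 9 stayed past the adjusted p, and over all 31 members 22.6% passed, beside 39.5% of all genes. Without the 8 animals of high ribosomal RNA, which leaves 1 animal at 28 dpi, none of the 9 passed, beside 2.95% of all genes, and the members' median went from -0.15 to -0.012.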

How the results depend on the processing

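No member was called at 4, 7 or 14 dpi under any alternative run. Percentages in brackets are the shares of all genes in the same fit. At 28 dpi 1 was called (4.64%), against 2 after quantile normalization (3.6%) and 28 with a common sum (65.2%). There were 2 after the length and GC correction (3.68%), 0 with the ribosomal RNA covariate (0%) and 0 without the 3 A3 animals (3.75%). Leaving out 1 animal gave 0 to 2. At any fold 3 passed (24.9%), against 5 after quantile normalization (22.7%) and 28 with a common sum (66.2%). There were 6 after the length and GC correction (25.9%) and 0 with the covariate (0%). Leaving out 1 gave 1 to 6. Between 14 and 28 dpi 1 was called (11.8%), against 2 after quantile normalization (9.94%) and 3 after the length and GC correction (8.31%). There were 0 without the 3 A3 animals (11.9%), and 0 to 1 when leaving out 1. At any fold 9 passed (43%), against 1 with a common sum (4.21%) and 5 in fits of 2 groups (37.9%). Leaving out 1 gave 6 to 11. At 42 dpi 1 was called with a common sum (0.824%), and at any fold 1 passed with a common sum (0.824%). Leaving out 1 gave 0. Between 28 and 42 dpi 1 passed at any fold with the random block (4.39%) and 1 after the length and GC correction (0.426%), with 0 to 2 when leaving out 1. With a common sum the members' median against sham was -0.49 (14 dpi), -0.88 (28 dpi) and -0.58 (42 dpi), -0.40 for 28 against 14 dpi and 0.29 for 42 against 28 dpi. Without the 8 animals of high ribosomal RNA it was 0.0033 at 28 dpi, -0.012 for 28 against 14 dpi and -0.041 for 42 against 28 dpi. Hoxa7 at 28 dpi reversed without the 8 animals (0.012). The positional index minus sham, with numbers 9 against 4 and 5, was -0.26 (4 dpi), -0.074 (7 dpi), -0.21 (14 dpi) and -0.33 (42 dpi), and with medians 0.17 at 7 dpi and 0.025 at 28 dpi; leaving out 1 animal gave -0.19 to 0.0092 at 14 dpi. The common sum and the smaller sets of animals change the values by construction, and the cause of the other changes was not tested. No paired analysis was possible because groups share at most 1 number of the labels (A3, at 28 and 42 dpi); the fit with that number as a random block is given above.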
